A study of Mus musculus with 12 samples.

Results

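The comparison described here set osteoblasts, the cells that build bone, against endothelial cells, which line its blood vessels, both sorted from the long bones of tumor-free mice. Its members were chosen by sample title and make up 6 of the 12 arrays in the series: 3 of osteoblasts and 3 of endothelial cells. All mice were female C57BL/6, with no genetic change named in the labels and no age given. The labels name no treatment for the tumor-free mice. The other 6 arrays hold the same cell types, 3 arrays each, from mice of that strain and sex whose long bones carried EO771 mammary carcinoma cells injected into the heart and followed for about 2 weeks.

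Both gates excluded cells with GFP, TR119 or CD45. Endothelial cells were then taken as positive for CD31 and SCA1, and osteoblasts as positive for CD51 without CD31 or SCA1. RNA came from 5000 cells and was amplified before hybridisation. The labels call the arrays biological replicates but do not say whether an osteoblast and an endothelial array share mice, or whether mice were pooled. The p-values below set each difference against the spread between arrays of the same group. That spread was estimated over all 12 arrays, 6 of them from tumor-bearing mice. Whether it is a spread between single mice is not known. The number of arrays, 3 a group, limits the precision.

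Osteoblasts deposit a matrix of type I collagen, crosslink it and mineralise it, and some become osteocytes enclosed in bone. The vessels of the marrow are largely sinusoids, wide channels whose endothelium carries scavenger receptors and takes up lipids and spent proteins from the blood. CD51, the integrin alpha V chain that defines the osteoblast gate, is also found on other stromal cells, so the gate is a broader one than a single bone marker would give.

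The values are the log2 signals of probe sets as the authors deposited them. For 19937 genes a probe set with 1 gene symbol existed, and 14217 of them were bright enough to be tested. Pairs of tumor-free osteoblast arrays correlated across the 14217 genes tested between 0.892 and 0.905 and pairs of endothelial arrays between 0.954 and 0.963. An osteoblast array and an endothelial array correlated between 0.781 and 0.797. The median SD of a gene over 3 arrays was 0.21 in osteoblasts and 0.16 in endothelial cells, so the osteoblast arrays were the less uniform group.

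The label of each cell type was first set against its defining markers, with limma's moderated test at a Benjamini-Hochberg adjusted p under 0.05. This test found 5.38% of the 14217 genes higher in osteoblasts and 7% lower, and in 29.4% of genes the arrays of the 2 groups did not overlap. At an unadjusted p under 0.05 by limma, 3338 of the 14217 genes differed in either direction. These values are the background for the counts below. All 9 endothelial markers tested (Cdh5, Cldn5, Emcn, Erg, Esam, Kdr, Pecam1, Tek and Tie1) were lower in osteoblasts, and their median level was 5.80, 5.70 and 5.89 in osteoblast replicates 1, 2 and 3 against 10.29, 10.28 and 10.43 in the endothelial replicates. All 6 osteoblast markers tested (Alpl, Col1a1, Dmp1, Ibsp, Pth1r and Sp7) were higher in osteoblasts, with medians of 10.88, 10.52 and 10.38 against 6.41, 6.14 and 6.16. Both lists separated the groups in the labelled direction, with no overlap in any of their genes. They were chosen with earlier results of these data known, and the gates sorted on the product of Pecam1. The lists are therefore no independent check of the labels. Outside them, the endothelial genes Vwf and Nos3 (limma adjusted p = 0.416 and 0.391) and the bone genes Sost and Sparc (0.911 and 0.0867) did not pass. Ly6a (SCA1), Runx2, Bglap and Spp1 had no probe set with a single symbol and are not analysed here. In bulk samples such as these, fewer cells of a type and less RNA per cell cannot be told apart.

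Markers of other cell types were not evenly spread over the osteoblast arrays. For counts of members highest in 1 osteoblast array, here and below, the share over all genes tested was not computed. Such counts alone thus cannot tell a trait of a list from one of the whole array. All 11 chondrocyte markers tested had their highest osteoblast value in replicate 2, where their median was 9.97, against 8.27 and 8.10 in replicates 1 and 3 and 6.13 to 6.62 in the endothelial arrays. All 12 monocyte and macrophage markers, all 10 neutrophil markers and all 9 pan-haematopoietic markers had theirs in replicate 3. The macrophage median there was 7.30, against 6.36 and 5.89 in osteoblast replicates 1 and 2 and 5.41 to 5.64 in the endothelial arrays. The tendon and joint surface list was also highest in replicate 3 for 7 of 10 members, with medians of 7.94, 8.14 and 8.71 in replicates 1 to 3 and at most 5.47 in the endothelial arrays. By limma, 8 of the 11 chondrocyte markers and 5 of the 10 tendon markers were higher in osteoblasts, and 0 of either list were lower. For 10 of the 11 chondrocyte markers every osteoblast array lay above every endothelial array, so their difference was not confined to replicate 2. Osteoblast replicate 2 thus had the highest chondrocyte median, and replicate 3 the highest macrophage, neutrophil and pan-haematopoietic medians. Other blood lists were nearly level over osteoblast replicates 1 to 3. Their medians were 6.10, 6.15 and 6.12 (B cell and plasma cell), 5.46, 5.49 and 5.56 (T and NK cell) and 6.39, 6.53 and 6.37 (erythroid). Of 9 mammary epithelial markers tested, 8 were also highest in replicate 3, with medians of 5.62, 5.90 and 5.94. The part of cartilage and blood cells in the results below was not tested beyond leaving each array out.

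Of the marker lists of blood lineages, by limma 0 of the 9 pan-haematopoietic, 10 neutrophil, 5 T and NK cell and 6 megakaryocyte markers passed (at an unadjusted p under 0.05, 1 pan-haematopoietic, 2 neutrophil and 1 megakaryocyte marker were higher and 1 pan-haematopoietic marker was lower). B cell and plasma cell markers were higher in osteoblasts for 3 of 8 tested, Ebf1 (1.92), which marrow stromal cells express too, Blnk (0.80) and Igll1 (0.40). Blnk did not pass without any 1 tumor-free endothelial array, nor Igll1 without endothelial replicate 2. Erythroid markers were higher for 2 of 8 tested, Slc4a1 (1.17) and Ermap (0.50); neither passed without osteoblast replicate 3, any 1 tumor-free endothelial array or endothelial replicate 3 of the tumor-bearing mice, and 1 of them passed without any other single array. Further, 2 of 12 monocyte and macrophage markers were higher in osteoblasts (Lyz2 and C1qc) and 1 (Vcam1) was lower. C1qc, a complement subunit gene of macrophages, read 6.38, 7.70 and 9.09 in osteoblasts and 5.86, 5.60 and 5.77 in endothelial cells. All 3 osteoblast arrays lay above all endothelial arrays, with the highest value in replicate 3, and limma's adjusted p of 0.0376 became 0.0673 without that replicate, where the difference went from 1.98 to 1.29, and 0.0835 to 0.111 without any 1 of osteoblast replicate 2 and the endothelial replicates. Without osteoblast replicate 2, 4 macrophage markers were higher, and without osteoblast replicate 3, 1 pan-haematopoietic marker was lower. Ptprc, which encodes CD45, differed by 0.18 with a 95% confidence interval from -0.79 to 1.16.

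**Figure D1:**
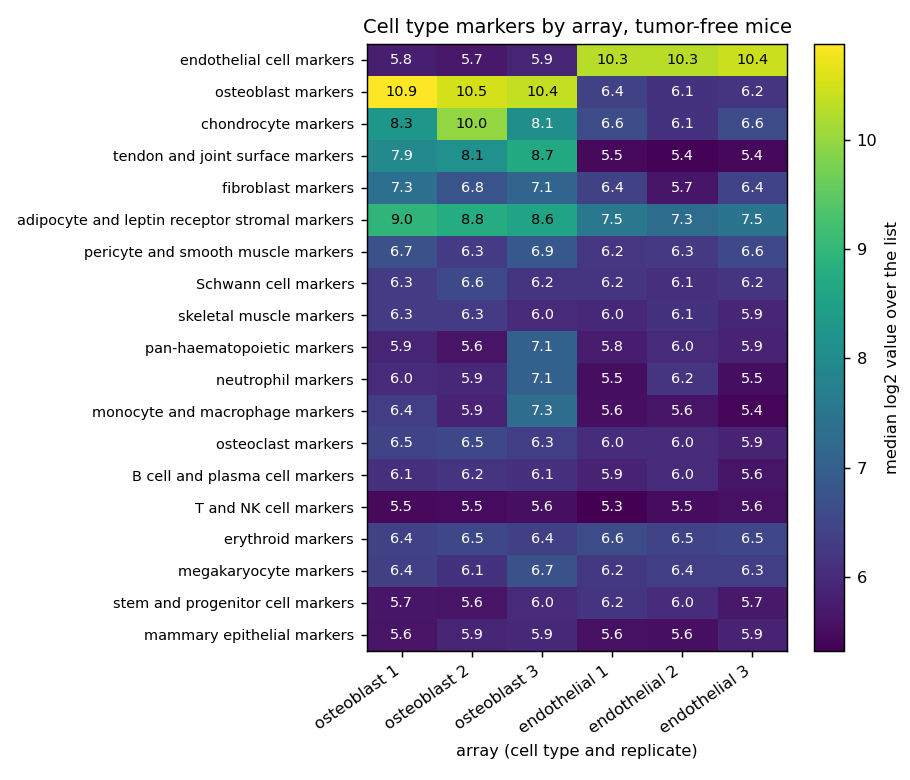
Median log2 value of each cell type marker list (vertical axis, 19 lists) on each of the 6 tumor-free arrays (horizontal axis, cell type and replicate), as colour and number. The endothelial list lies between 10.28 and 10.43 on the endothelial arrays and at most 5.89 on the osteoblast arrays, and the chondrocyte list is highest on osteoblast replicate 2 at 9.97.

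In total, 1760 of 14217 genes (12.4%) differed between the cell types by this test, 765 of them higher in osteoblasts and 995 lower. At least 2-fold differences were found for 494 higher and 636 lower genes, at least 8-fold for 100 and 77, and at least 32-fold for 11 and 18. The median difference over all genes was -0.01 on the log2 scale. For 10000 genes (70.3%), the 95% confidence interval of the difference lay within 2-fold either way, including 242 genes that passed the test with a small difference. A further 2699 genes neither passed nor were bounded in that way.

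**Figure D2:**
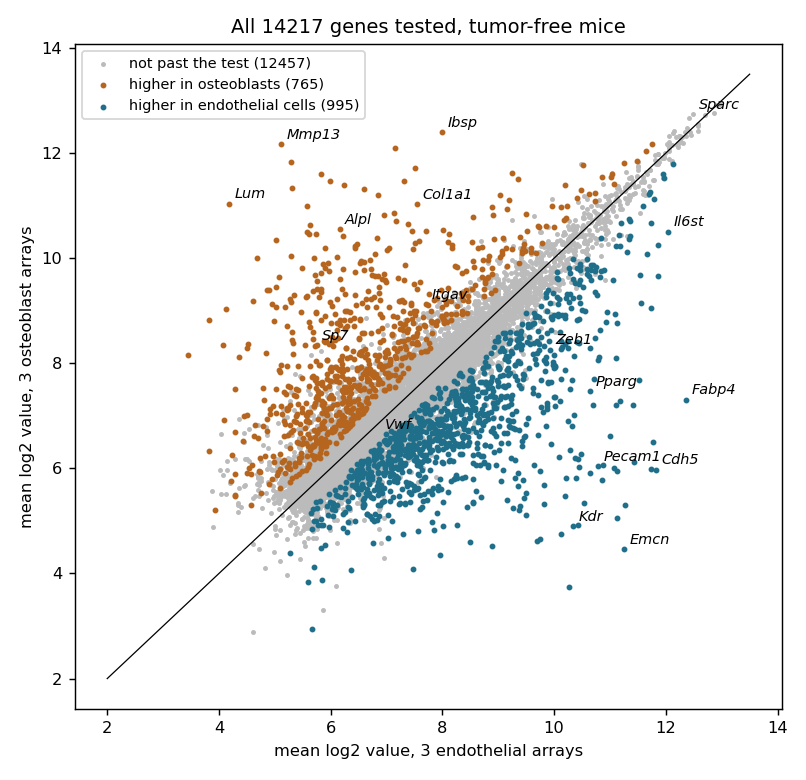
Mean log2 value of each of the 14217 genes tested over 3 endothelial arrays (horizontal axis) and 3 osteoblast arrays (vertical axis), with the 765 genes higher and the 995 genes lower in osteoblasts in colour and the line of equal values in black. Named genes far from the line include Mmp13 and Lum above it and Emcn and Kdr below it, while Sparc and Vwf lie near it.

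The 12 genes with the largest difference toward osteoblasts were mostly genes of the matrix and its turnover. Mmp13, a collagenase, read 12.31, 12.07 and 12.11 on the osteoblast arrays and 5.40, 4.93 and 5.0 on the endothelial arrays. The 2 groups lay far apart, 133-fold by their means (7.05 ± 0.17 on the log2 scale, difference ± SE, n = 3 per group, limma adjusted p = 1.05e-08). Lum (lumican), a small leucine-rich proteoglycan that binds collagen fibrils, read 11.04, 11.22 and 10.85 against 4.27, 4.13 and 4.17. Postn, a matricellular protein of periosteum, read 11.83, 11.84 and 11.83 in osteoblasts, nearly the same on each array, against 5.52, 5.34 and 5.03. Fap, a serine protease of stromal cells, read 11.58, 11.34 and 11.48 against 5.49, 5.52 and 6.96, with endothelial replicate 3 above the other endothelial arrays. Next in size were Aspn (6.02), Tnc (5.79), Col12a1 (5.42), the phosphate-regulating endopeptidase gene Phex (5.34), Cpe (5.32), Dcn (5.16), Ptprz1 (5.01) and Dmp1 (5.0), as log2 differences. In each of these 12 genes every osteoblast array lay above every endothelial array.

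Junction gene Cdh5 and the receptor genes Kdr and Tek were among the 12 largest differences toward endothelial cells. Emcn (endomucin), a sialomucin of venous and sinusoidal endothelium, read 11.17, 11.34 and 11.23 on the endothelial arrays and 4.62, 4.14 and 4.61 on the osteoblast arrays, 111-fold apart (-6.79 ± 0.23, limma adjusted p = 2.92e-08). Il13ra2, a decoy receptor for interleukin 13, read 10.21, 10.36 and 10.22 against 3.78, 3.69 and 3.75. Cd36, a fatty acid and scavenger receptor, read 11.13, 11.13 and 11.10 against 5.20, 4.35 and 5.63, where the endothelial arrays nearly coincided and the osteoblast arrays were spread over more than 1 log2 unit. Below them in size came Ubd (-5.96), Cdh5 (-5.86), Gpm6a (-5.75), Adgrl4 (-5.52), Kdr (-5.44), Clca3a1 (-5.38), Stab2 (-5.29), Tfpi (-5.25) and Tek (-5.19). The groups did not overlap in any of the 12 genes.

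**Figure D3:**
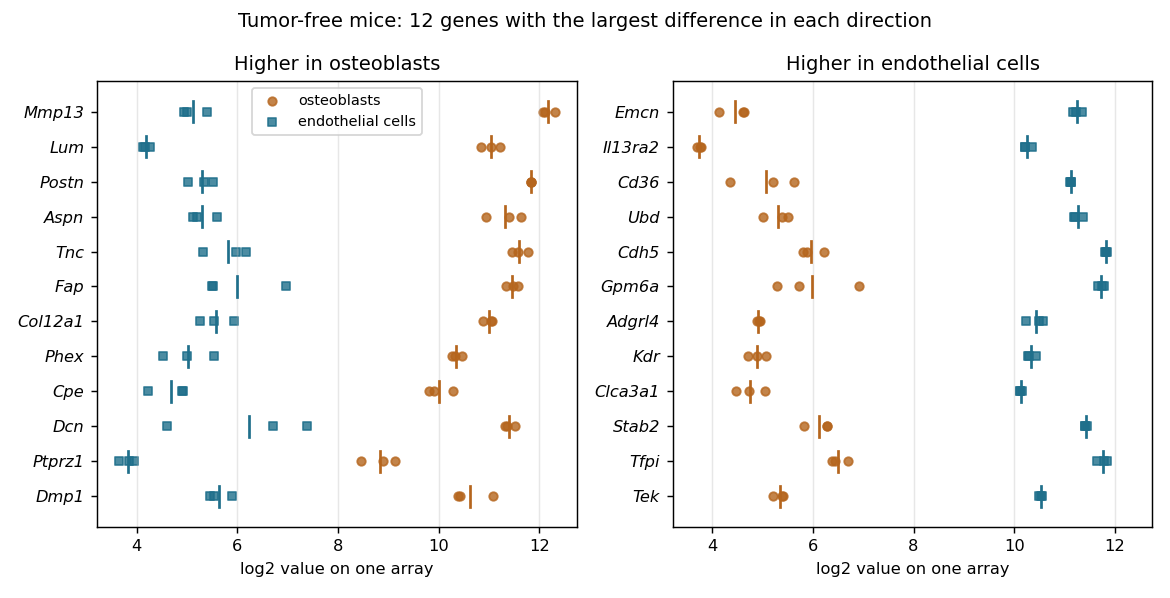
Log2 value on each array (horizontal axis; circles for osteoblasts, squares for endothelial cells, bars for the means of 3 arrays) of the 12 genes with the largest difference toward osteoblasts (left) and toward endothelial cells (right). Mmp13 lies between 12.07 and 12.31 in osteoblasts and at most 5.40 in endothelial cells, and Emcn between 11.17 and 11.34 in endothelial cells and at most 4.62 in osteoblasts.

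Promoter sequence was looked at for letters that known families of transcription factors recognise. RefSeq promoter windows (GRCm38.p6, 250 bases before to 50 after a gene's start) matched 11205 of the 14217 genes tested, with 14107 windows. The ETS letters ACAGGAA, searched on both strands, stood in 34 of 196 windows (17.3%) of genes at least 4-fold lower in osteoblasts, in 18 of 202 (8.91%) of genes at least 4-fold higher, in 7.43% of the windows of genes tested and in 8.67% of all promoters in the table. ETS factors such as ERG and FLI1 are known regulators of endothelial genes. TATAAA, the TATA box letters, stood in 16.3% of windows of genes at least 4-fold higher, 14.3% of those at least 4-fold lower and 7.94% of those tested. The AP-1 letters TGANTCA stood in 6.44%, 10.2% and 5.52%, the RUNX letters TGTGGT in 13.4%, 12.8% and 12.8%, and the GATA letters AGATAA in 5.45%, 9.18% and 6.9%. No window set was tested against another. In all promoters of the table, which include those of genes not tested here, the shares were 13.6% (TATA box), 7.81% (AP-1), 16.8% (RUNX) and 11.2% (GATA). Both sets of strongly differing genes had less GC-rich windows than the genes tested, with median GC of 55.2% (higher), 54.5% (lower) and 60% (tested), so base composition moved with the TATA shares. A match of letters is a description and not a bound site.

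The windows of the leading gene of each direction are shown because both hold such letters, together with that of Il13ra2. Each is the 250 bases before the start, 5′ to 3′ on the gene's strand, with matched letters in capitals: the RUNX letters (as ACCACA), the AP-1 letters (as TGACTCA) and the TATA box letters in Mmp13, the ETS letters (as TTCCTGT) in Emcn, and the TATA box, AP-1 and GATA letters (as TTATCT) in Il13ra2. They lie at chr9:7272264-7272513 on the plus strand (Mmp13), chr3:137340828-137341077 on the plus strand (Emcn) and chrX:147429193-147429442 on the minus strand (Il13ra2).
Mmp13: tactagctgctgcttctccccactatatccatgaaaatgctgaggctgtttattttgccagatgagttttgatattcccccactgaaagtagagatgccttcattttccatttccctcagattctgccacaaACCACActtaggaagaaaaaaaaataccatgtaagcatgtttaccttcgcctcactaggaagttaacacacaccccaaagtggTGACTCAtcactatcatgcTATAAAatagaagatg
Emcn: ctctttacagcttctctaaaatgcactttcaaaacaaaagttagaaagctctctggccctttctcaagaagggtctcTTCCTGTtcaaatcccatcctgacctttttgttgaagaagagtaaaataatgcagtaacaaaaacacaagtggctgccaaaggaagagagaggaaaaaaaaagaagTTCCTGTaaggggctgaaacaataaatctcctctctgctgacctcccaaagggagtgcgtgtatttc
Il13ra2: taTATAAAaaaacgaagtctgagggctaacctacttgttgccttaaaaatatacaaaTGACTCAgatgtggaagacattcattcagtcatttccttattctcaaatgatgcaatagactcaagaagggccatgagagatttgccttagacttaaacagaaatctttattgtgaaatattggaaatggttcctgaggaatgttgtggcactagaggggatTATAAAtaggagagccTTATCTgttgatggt
Of the 12 genes with the largest difference toward endothelial cells, 9 had a single window, and among these Emcn alone held the ETS letters. No ETS letters in this form stood in the windows of Kdr, Adgrl4, Cd36, Ubd, Il13ra2, Clca3a1, Stab2 or Tek. All of these genes were at least 32-fold lower in osteoblasts. Of the 12 genes with the largest difference toward osteoblasts, 4 had a single window, and among these Mmp13 alone held the RUNX letters. Those of Aspn, Phex and Ptprz1 did not hold them, while that of Stab2, on the endothelial side, did.

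Among the transcription factors of bone and mesenchyme, 17 of 37 tested were higher in osteoblasts and 1 was lower, with a median difference of 0.80. This list has 43 members, of which 2 were too dim to be tested and 4 had no single-symbol probe set. Prrx1, a homeobox gene of limb mesenchyme, read 9.36, 8.85 and 9.26 in osteoblasts and 6.53, 5.26 and 6.19 in endothelial cells (3.16 ± 0.37, limma adjusted p = 2.52e-04). Sp7 (osterix), required for osteoblast formation, read 8.71, 8.41 and 7.91 against 5.51, 5.56 and 6.18, and Dlx5, a homeobox gene upstream of it, 9.95, 9.09 and 8.66 against 7.24, 6.59 and 6.33. All 3 genes were separated between the groups, with osteoblast replicate 1 highest. Creb3l1, a factor for collagen secretion, and Twist1 were higher by 2.16 and 1.48. The zinc-finger paralogs Zeb2 and Zeb1 went opposite ways: Zeb2 was higher in osteoblasts by 1.71 and Zeb1 was the one member that was lower, at 8.27, 8.37 and 8.14 against 9.88, 10.0 and 9.90 in endothelial cells (-1.67). The count of 17 fell to 11 without endothelial replicate 1 and to 11 without endothelial replicate 2.

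Genes of mineralisation and osteocytes were higher for 13 of 21 tested, with a median of 1.24, and 1 was lower. Phex and Dmp1, a matrix phosphoprotein of osteocytes, stood among the largest differences, and Ibsp (bone sialoprotein) read 12.46, 12.42 and 12.29 against 7.83, 8.26 and 7.90. Alpl, the alkaline phosphatase that frees phosphate for mineral, read 10.67, 10.65 and 10.34 against 6.29, 6.17 and 6.03 (4.39 ± 0.23, 21-fold, limma adjusted p = 5.41e-07). Neither gene's groups overlapped. Further members were Omd (4.28), Mgp, an inhibitor of mineralisation (4.21), the citrate carrier Slc13a5 (1.94), the matrix kinase Fam20c (1.80) and Ank (1.24). Fgf23, a phosphate-lowering hormone of osteocytes, was lower in the osteoblast arrays, at 6.75, 6.44 and 6.94 against 8.21, 7.44 and 8.35 (-1.29 ± 0.27, adjusted p = 0.0105 by limma). Sost (sclerostin), a marker of mature osteocytes, differed by 0.03 with an interval from -0.20 to 0.27, within 2-fold, and Mepe was below the filter in these arrays.

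Of 25 interstitial collagen chain genes, all tested, 15 were higher in osteoblasts and 0 lower (18 and 0 at an unadjusted p under 0.05), with a median of 1.15. The chains of type I collagen read 11.30, 10.99 and 10.80 against 7.64, 7.36 and 7.65 (Col1a1) and 10.90, 10.82 and 10.73 against 7.16, 6.62 and 7.08 (Col1a2), differences of 3.48 and 3.86. Col12a1, a fibril-associated collagen of periosteum and tendon, was the largest of the list at 5.42. The chains of types VI, V and III were higher by less, with Col6a1 at 2.59, Col5a2 at 2.13 and Col3a1 at 1.52. Cartilage collagens passed as well, Col10a1 by 2.80, Col11a1 by 2.56 and Col2a1 by 1.57. Each also passed without osteoblast replicate 2, the array with the highest chondrocyte markers. Col2a1 did not pass without endothelial replicate 1, 2 or 3. Col14a1 (0.11), Col16a1 (0.30) and Col27a1 (0.09) did not pass.

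The enzymes that fold, trim and crosslink collagen went with the chains: 15 of 26 tested were higher and 1 lower, with a median of 1.07. Lox, which crosslinks collagen, read 8.90, 8.95 and 8.55 against 5.22, 4.57 and 5.19 (3.81 ± 0.29, limma adjusted p = 1.17e-05), and its relatives Loxl3 (2.65), Loxl1 (1.84) and Loxl4 (1.81) were higher too. The procollagen processing genes Pcolce2 (3.59), Pcolce (3.06) and Bmp1 (1.78) were higher in osteoblasts. The lysyl hydroxylases parted: Plod2, which hydroxylates the collagen telopeptides, was higher, at 10.95, 11.13 and 10.04 against 6.97, 7.42 and 7.15 (3.53), and Plod1 was lower, at 7.36, 7.93 and 7.63 against 8.63, 8.64 and 8.73 (-1.02). Groups did not overlap in either gene. Of the 26 genes, 19 had their highest osteoblast value in replicate 2, the array with the most cartilage signal.

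Small leucine-rich proteoglycans and matricellular proteins were higher for 24 of 40 tested and lower for 0 (27 and 0 at an unadjusted p under 0.05), with a median of 0.92. Beside Lum, Postn, Aspn, Tnc and Dcn these were Fn1, the fibronectin gene (11.91, 12.35 and 12.02 against 6.76, 6.94 and 7.76, a difference of 4.94), Ogn (4.50), Kera (4.43), Fmod (3.96), Thbs4 (3.71) and Thbs1 (2.42). Kera, Fmod and Thbs4 are also in the tendon list. Not all matrix genes took part: Sparc (osteonectin), abundant in bone, differed by 0.25 with an interval from 0.06 to 0.44, and Eln (elastin) by -0.23 without passing.

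Matrix proteases and inhibitors were split, with 13 of 25 tested higher and 5 lower and a median of 0.65. Beside Mmp13 and Fap, the osteoblast side held Mmp16 (4.19), Ctsk (3.48), Mmp2 (3.33), Htra1 (3.29), Mmp9 (2.82) and Adamts9 (2.09). The value of Adamts9 is that of its brightest probe set: over the mean of its probe sets the difference was 0.54 and did not pass (adjusted p = 0.162 by limma). The endothelial side held Adamts5, an aggrecanase, at 10.73, 10.55 and 10.62 against 7.45, 9.06 and 8.38 in osteoblasts (-2.34), Adamts1 (-1.72) and Adamts4 (-1.11). The tissue inhibitors of metalloproteinases divided evenly: Timp1 read 9.84, 10.01 and 9.39 in osteoblasts against 6.49, 5.57 and 5.86, and Timp2 was higher by 1.58, while Timp3 read 10.38, 9.57 and 9.38 against 10.94, 10.70 and 11.04 and Timp4 was lower by -1.07. The count of 5 lower genes became 3 without osteoblast replicate 1, osteoblast replicate 3 or endothelial replicate 1, and 2 without endothelial replicate 3. Ctsk and Mmp9 are genes of osteoclasts too; the other 6 osteoclast markers tested, Acp5 among them (0.65), were not past the test, and the median of the list was 6.35 to 6.53 on the osteoblast and 5.86 to 6.03 on the endothelial arrays.

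Secreted growth factors, chemokines and osteoclast regulators of stroma were higher for 24 of 52 tested and lower for 3, with a median of 0.76. Fgf7, a growth factor for epithelium, read 10.22, 9.39 and 9.34 against 4.80, 4.73 and 5.71 (4.57 ± 0.32, limma adjusted p = 6.18e-06). Angpt1, the ligand of the endothelial receptor Tek, read 8.57, 8.55 and 8.01 in osteoblasts against 4.92, 3.95 and 4.71, while Tek itself read 5.40, 5.20 and 5.42 against 10.54, 10.49 and 10.56 in endothelial cells. Ligand and receptor thus lay on opposite sides with no overlap in either. Other ligands higher in osteoblasts were Sfrp4 and Wif1, Wnt antagonists (4.17 and 2.09), Bmp5 (3.90), Ptn (3.80), Igf1 (1.71), Pdgfc (2.53), Vegfa (0.80) and the niche chemokine Cxcl12, at 10.98, 10.73 and 10.76 against 9.49, 8.10 and 9.11 (1.92). Hgf (-1.43), Igfbp7 (-0.95) and Tgfb1 (-0.71) were the lower members, of which there were 5 without osteoblast replicate 3 of the tumor-bearing mice. Of the osteoclast regulators, Csf1 passed narrowly at 9.72, 9.51 and 8.09 against 7.59, 7.92 and 7.70, with osteoblast replicate 3 near the endothelial arrays, and it did not pass without any 1 of the other 5 tumor-free arrays. Tnfsf11 (RANKL) differed by 0.50 (adjusted p = 0.0687 by limma) and Tnfrsf11b (osteoprotegerin) by 0.86 (adjusted p = 0.35), and neither passed. Frzb was below the filter, with 5.19, 9.66 and 5.13 on the osteoblast arrays, high in replicate 2 alone.

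Receptors that bone stroma uses to sense hormones and growth factors were higher for 16 of 38 tested and lower for 3, with a median of 0.43. Vdr, the vitamin D receptor gene, read 9.33, 9.0 and 8.53 against 5.50, 5.54 and 6.17 (3.21 ± 0.22, limma adjusted p = 5.02e-06), and Pdgfra and Fgfr2 were higher by 3.20 and 3.05. Pth1r, the parathyroid hormone receptor gene, read 8.45, 9.97 and 8.54 against 6.52, 6.11 and 6.15, highest in osteoblast replicate 2; it is expressed in cartilage too. Within the interleukin 6 receptor family the members parted: Lifr was higher at 11.72, 11.57 and 11.55 against 9.46, 9.03 and 9.23 (2.37), while the shared signalling chain Il6st was lower at 10.55, 10.41 and 10.55 against 12.08, 12.01 and 12.03 (-1.53) and Osmr was lower by -1.09. Igf1r was lower by -0.69 and did not pass without any 1 tumor-free array other than osteoblast replicate 2. Without endothelial replicate 3, 1 of the 3 lower members passed.

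In the endothelial program, transcription factors were lower in osteoblasts for 18 of 39 tested and higher for 0 (1 at an unadjusted p under 0.05), with a median of -0.64. Hhex, a homeobox gene of early endothelium, read 9.28, 9.29 and 9.34 in endothelial cells against 6.25, 5.99 and 6.26, and Sox18 9.33, 9.25 and 9.03 against 6.57, 6.88 and 7.27. The ETS genes Ets2 (-2.63), Ets1 (-2.58), Elk3 (-2.07), Fli1 (-2.02) and Erg (-1.85) were all lower in osteoblasts, as was Nr2f2, a factor of venous identity (-2.43 ± 0.25, limma adjusted p = 1.17e-04). Erg read 6.37, 8.10 and 7.74 in osteoblasts, with replicate 1 lowest, and 9.31, 9.25 and 9.19 in endothelial cells. Tal1, Klf2 and Foxo1 did not pass (-0.18, -0.27 and -0.34), though Klf2 did without osteoblast replicate 2. Without osteoblast replicate 1, or without osteoblast replicate 3 of the tumor-bearing mice, 1 member was higher. Prox1, the lymphatic factor, was below the filter, at 5.58, 5.56 and 5.68 in endothelial arrays.

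Junction and adhesion genes of endothelium were lower for 20 of 30 tested and higher for 1, with a median of -1.37. Cdh5 (VE-cadherin) read 11.81, 11.83 and 11.85 against 5.80, 6.23 and 5.89 in osteoblasts and Pecam1 (CD31), which the gates sorted on, 10.83, 10.78 and 10.73 against 5.94, 5.70 and 6.49. Sele (E-selectin), through which leukocytes roll on venules, read 10.66, 10.25 and 10.56 against 6.15, 6.23 and 6.47 (-4.21 ± 0.16, limma adjusted p = 5.64e-08). F11r (-4.15), Clec14a (-4.02), Cd93 (-3.91), Cd34 (-3.24), the atypical chemokine receptor Ackr1 of venules (-3.11) and Cldn5 (-2.85) followed. Gja1 (connexin 43), a gap junction gene of osteoblasts, was the single member higher in osteoblasts, at 10.80, 10.51 and 10.52 against 10.18, 9.55 and 9.39 (0.90); it did not pass without any 1 of the osteoblast arrays or without endothelial replicate 2 or 3. Its relative Gja4 (connexin 37) was lower by -0.81.

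Angiogenic receptors and ligands made up the list with the largest share of lower members among the 22 gene lists, 29 of 39 tested, with 1 higher and a median of -1.46. Kdr and Flt1, receptors for VEGF, read 10.29, 10.28 and 10.43 against 5.08, 4.72 and 4.89 and 10.25, 10.49 and 10.42 against 5.94, 5.88 and 5.65, with no overlap between the cell types. Adgrl4 (-5.52), Tek (-5.19), Ptprb, the phosphatase that acts on the Tek protein (-4.82), Aplnr (-4.42), Calcrl (-4.37), Eng (-3.44) and Flt4 (-3.20) were lower in osteoblasts by 8-fold or more. Notch genes differed by less, Notch1 by -1.12, Dll4 by -0.78 and Notch4 by -0.70, and Jag1 and Nrp2 did not pass (-0.47 and 0.36). Esm1, often used as an endothelial tip cell gene, was the one member higher in osteoblasts, at 10.50, 10.53 and 10.57 against 8.54, 7.50 and 7.99 (2.52 ± 0.30, adjusted p = 2.96e-04 by limma). Without osteoblast replicate 2, Nrp2 passed as a further higher member.

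Of the coagulation and vascular tone genes, 13 of 25 tested were lower in osteoblasts and 4 higher, with a median of -0.86. Tfpi, the tissue factor pathway inhibitor gene, read 11.85, 11.64 and 11.79 against 6.39, 6.69 and 6.44, and F8, the factor VIII gene, 11.10, 11.07 and 11.04 against 7.22, 5.40 and 5.43, with osteoblast replicate 1 above the other osteoblast arrays. Thbd (thrombomodulin) was lower by -2.65 and Entpd1, which degrades extracellular ATP, by -3.49. Vwf, a common endothelial marker, differed by -0.23 with an interval from -0.56 to 0.10. Nos3, the endothelial nitric oxide synthase gene, differed by -0.27 with one from -0.64 to 0.10. Both were bounded within 2-fold on this scale, which understates fold changes of dim probe sets. Nos3 was bright enough to be tested in 20 of the 21 settings. Gas6 (1.87), Gucy1a1 (1.43), Ptgis (1.29) and Ace (0.63) were higher in osteoblasts, and 2 of the 4 passed when any 1 tumor-free array other than osteoblast replicate 2 was left out.

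Sinusoidal scavenger, transport and lipid uptake genes had the lowest median of the 22 lists, -1.53, with 25 of 37 tested lower in osteoblasts and 2 higher. Stab2, which clears hyaluronan and other waste from blood, read 11.45, 11.41 and 11.41 against 6.28, 5.82 and 6.29, and Fabp4, a fatty acid carrier, 12.41, 12.36 and 12.33 against 7.58, 7.09 and 7.24 (-5.06 ± 0.15, 33.5-fold, limma adjusted p = 1.35e-08). Dnase1l3 (-4.73), Cavin2 (-4.02), Gpihbp1, which anchors lipoprotein lipase (-3.57), Slco2a1 (-3.48), Stab1 (-2.67) and Plvap (-2.04) were lower too. Mrc1, a mannose receptor of sinusoids and macrophages, read 11.42, 11.47 and 11.34 in endothelial cells and 7.04, 5.55 and 9.01 in osteoblasts, so osteoblast replicate 3, high in macrophage markers, lay nearest to the endothelial arrays. Lyve1, a hyaluronan receptor of lymphatics and of other sinusoids, did not pass (-0.07). The 2 members higher in osteoblasts were Lrp1, a large endocytic receptor (8.89, 8.50 and 8.90 against 6.17, 6.11 and 6.06), and Lpl, lipoprotein lipase itself (0.88), while the lipase's anchor Gpihbp1 was on the endothelial side. Lpl did not pass without osteoblast replicate 1 or endothelial replicate 2 or 3.

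**Figure D4:**
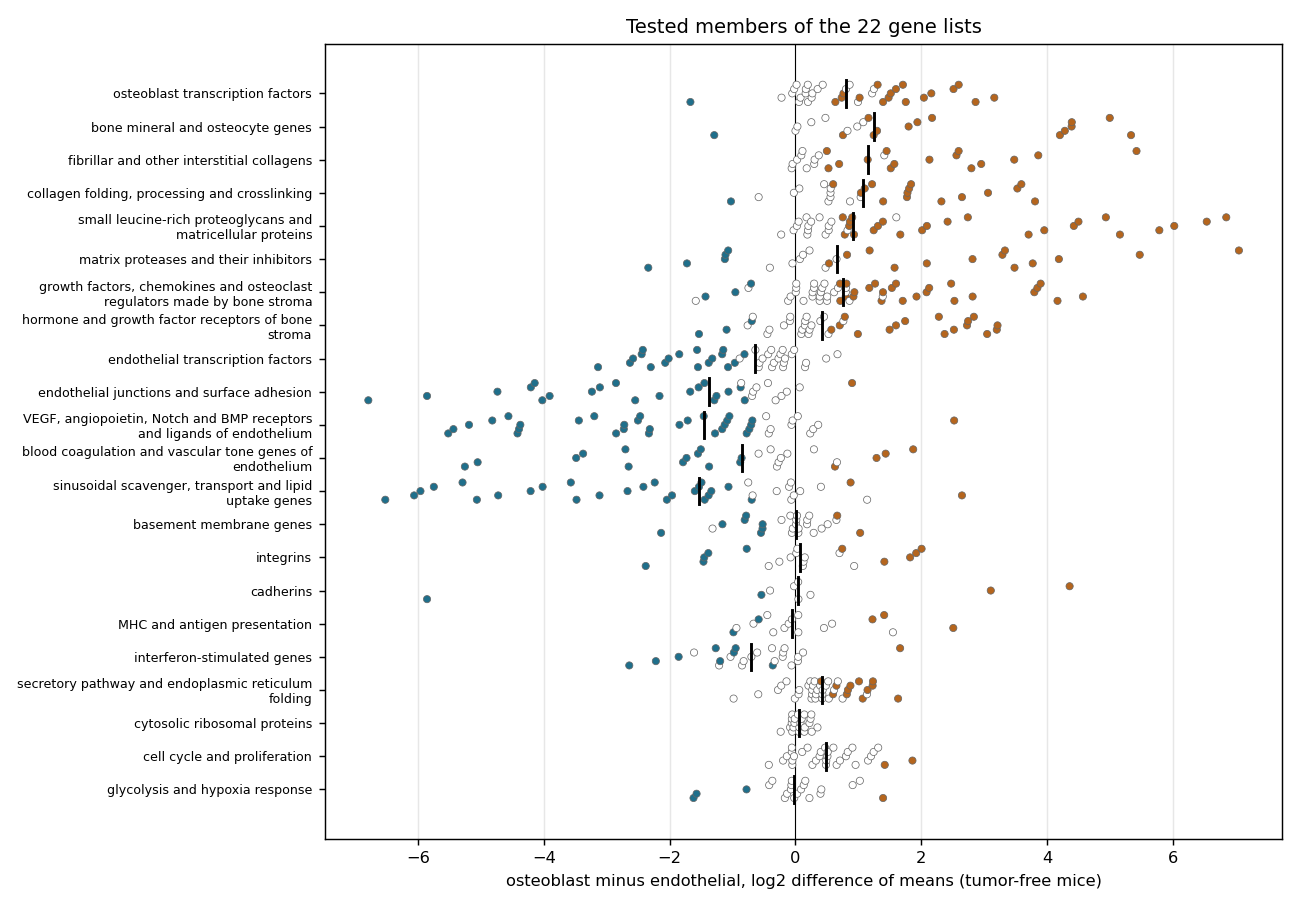
Difference of means, osteoblast minus endothelial, in log2 units (horizontal axis) of each tested member of the 22 gene lists (vertical axis) in tumor-free mice; filled points passed the test (brown higher, blue lower in osteoblasts), open points did not, and bars are medians. Medians run from 1.24 for bone mineral and osteocyte genes to -1.53 for sinusoidal genes, and cytosolic ribosomal proteins cluster around 0.06.

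Families that both cell types use to hold on to matrix and to one another were divided between them. Of 20 integrin genes tested, 5 were higher in osteoblasts and 5 lower with a median of 0.07. The collagen-binding chains Itga10 (2.01) and Itga11 (1.92) were higher and Itga1 (-1.45) and Itga2 (-1.38), which also bind collagen, were lower. The laminin receptor chain Itga6 was the lowest, at 7.07, 6.69 and 6.67 against 9.16, 9.28 and 9.13 in endothelial cells (-2.38). Itgav (CD51), which the gate selected, read 9.37, 9.38 and 8.61 against 8.14, 6.88 and 8.09 (1.41, limma adjusted p = 0.0341), with no overlap, and its partner Itgb5 was higher by 1.82. The common beta chain Itgb1 differed by 0.01 (interval -0.25 to 0.27). The count of 5 higher became 3 without endothelial replicate 2, and Itgav did not pass without that array or without osteoblast replicate 1 or 2 (adjusted p = 0.106, 0.103 and 0.1 by limma).

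Among 9 cadherins tested, the osteoblast arrays carried Cdh11 (11.42, 11.07 and 11.13 against 7.66, 6.23 and 6.66, 4.36) and Cdh2 (3.11), and the endothelial arrays Cdh5 (-5.86). Cdh4 was lower by a small difference (-0.54) that did not pass without any 1 of 5 of the 6 tumor-free arrays, osteoblast replicate 3 being the exception. Basement membrane genes were lower in osteoblasts for 7 of 26 tested and higher for 2, with a median of 0.01. Nid1 (nidogen), which links laminin to type IV collagen, read 8.82, 9.15 and 8.73 in endothelial cells against 6.60, 6.84 and 6.86 (-2.14), and the main type IV chains Col4a1 and Col4a2 were lower by -0.81 and -0.78. Of the 2 higher members, 1 passed without osteoblast replicate 1 or 2 or endothelial replicate 1 or 2. Only 2 of the 7 lower genes differed by 2-fold or more, and 17 of the 26 were bounded within 2-fold.

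Immune programs differed in part. Of 17 MHC and antigen presentation genes tested, 3 were higher in osteoblasts, all of class II (H2-Aa, H2-Ab1 and H2-Eb1), and 2 were lower, the immunoproteasome gene Psmb9 (-0.99) and Tap2 (-0.58). H2-Aa read 8.13, 7.57 and 9.54 in osteoblasts against 5.47, 6.09 and 6.15, with replicate 3 the highest, as in the macrophage list. H2-Aa alone of the 3 passed without osteoblast replicate 3 or without any 1 of the endothelial arrays. Psmb9 did not pass without any 1 tumor-free array other than osteoblast replicate 3. Interferon-stimulated genes were lower in osteoblasts for 8 of 25 tested and higher for 1, with a median of -0.70; Iigp1 read 10.31, 10.12 and 10.55 in endothelial cells against 7.84, 6.89 and 8.32, and Ifitm1 was the higher member (1.66). The 8 became 5 without any 1 of the 3 endothelial arrays.

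In the secretory pathway, which carries collagen to the surface, 12 of 41 genes tested were higher in osteoblasts and 0 lower (1 at an unadjusted p under 0.05), with a median of 0.43. Sec24d and Sec23a, coat subunits that load procollagen, were higher by 1.23 and 1.07, and Copz2 by 1.63; Hspa5 and Canx were not past the test (0.24 and 0.06). Only 6 of the 12 were at least 2-fold, and 7 passed without osteoblast replicate 2 or without endothelial replicate 2. Without osteoblast replicate 1, 1 member was lower. Of 22 cytosolic ribosomal protein genes tested, 0 passed limma's test in either direction (2 higher and 1 lower at an unadjusted p under 0.05), with a median of 0.06 and 21 bounded within 2-fold; 1 was higher without endothelial replicate 3 of the tumor-bearing mice.

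Of 32 proliferation genes tested, 2 were higher in osteoblasts and 0 lower (13 and 0 at an unadjusted p under 0.05). They were Top2a (9.01, 9.08 and 9.42 against 7.14, 7.53 and 7.26, 1.86) and Mki67 (1.42). Their share of the list, 6.25%, lay near the 5.38% over all genes tested. The difference of Top2a was 0.99 over the mean of its probe sets. The list's median was 0.49, and 4 members passed without osteoblast replicate 2 and 5 without osteoblast replicate 3 of the tumor-bearing mice. The groups did not overlap for 15 of the 32 genes, all with osteoblasts above, and 18 of the 32 were highest in osteoblast replicate 3. Over all genes tested, osteoblasts lay above without overlap for 1939 of 14217. Glycolysis and hypoxia genes were higher for 1 of 21 tested, Tpi1 (1.39), and lower for 3, Ndrg1 (-1.62), Pdk1 (-1.57) and Hif1a (-0.78), and 17 of the 21 had their highest osteoblast value in replicate 2. Tpi1 did not pass without that array, nor without osteoblast replicate 1 or endothelial replicate 1 or 3.

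Adipocyte and leptin receptor stromal markers, a list for the marrow cells that surround sinusoids, were higher in osteoblasts for 9 of 13 tested and lower for 1. Lepr read 10.22, 10.42 and 10.35 against 8.03, 7.28 and 7.43, and Adipoq (adiponectin) and Ebf3 were higher by 2.23 and 1.52. Plin1, which coats the lipid droplets of fat cells, did not pass (-0.11). Pparg, the adipocyte master regulator, which sinusoidal endothelium also expresses, was lower in osteoblasts, at 7.74, 7.61 and 7.06 against 10.72, 10.57 and 10.66 (-3.18). Pericyte and smooth muscle markers were lower in osteoblasts for 3 of 11 tested and higher for 1, with a median of 0.05. The channel subunit genes Kcnj8 (-4.16) and Abcc9 (-3.0) lay on the endothelial side, at 10.23, 10.65 and 10.22 against 6.0, 5.81 and 6.80 and 11.13, 11.06 and 11.13 against 8.32, 7.74 and 8.25, and Mcam was lower by -1.67. Cspg4 (NG2) was the higher member (0.75) and did not pass without osteoblast replicate 2 or 3 or any 1 endothelial array of either set of mice. The pericyte genes Rgs5 (-0.76), Acta2 (1.25) and Notch3 (0.40) did not pass, though Rgs5 did without endothelial replicate 2 of the tumor-bearing mice and Acta2 without osteoblast replicate 2.

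The same contrast was then read in the 6 arrays of tumor-bearing mice, which share no array with it but share the fit's estimate of spread. There 10.6% of genes tested passed (4.89% higher and 5.68% lower in osteoblasts). Of the 1760 tumor-free calls, 1693 (96.2%) had the same sign in tumor-bearing mice, 1056 passed there in the same direction and 0 passed in the opposite one. The shared genes were 60% of the tumor-free calls and 70.3% of the tumor-bearing calls, 452 higher and 604 lower in osteoblasts. In the endothelial lists, 25 of 37 sinusoidal genes and 26 of 39 angiogenic receptors and ligands were lower in osteoblasts there, as were 24 of 30 junction genes. Of the matrix lists, 16 of 25 collagens and 22 of 40 proteoglycan and matricellular genes were higher. Tumor-free calls recurred unevenly between lists. Of the members lower in tumor-free osteoblasts, 22 of 25 sinusoidal and 26 of 29 angiogenic genes passed again in that direction. Of those higher, 14 of 15 collagens did, but 10 of 17 bone transcription factors and 13 of 24 stromal growth factors, chemokines and osteoclast regulators.

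A direct test of the change of the cell type difference with tumor passed for 4 of 14217 genes (0.0281%) by limma, with 920 at an unadjusted p under 0.05. The count of 4 ranged from 0 to 7 as single arrays were left out, and was 0 without osteoblast tumor-free replicate 1, endothelial tumor-free replicate 2, or endothelial tumor-bearing replicate 1 or 3. Mmp13 read 12.19, 12.17 and 12.02 in osteoblasts and 7.53, 6.96 and 7.40 in endothelial cells of tumor-bearing mice, so the osteoblast arrays of both sets of mice overlapped and the endothelial arrays of tumor-bearing mice all lay above those of tumor-free mice. The difference went from 7.05 to 4.83. Amy1, an amylase gene, went from 3.51 to 0.88, Exosc7, a subunit of the RNA exosome, from -1.19 to 0.29, and Chil1, a secreted chitinase-like protein, from 0.09 to 3.43. Of the 9 marrow stromal markers higher in tumor-free osteoblasts, 0 were higher in tumor-bearing osteoblasts by limma, and 0 at an unadjusted p under 0.05. Lepr read 10.20, 9.93 and 9.62 in osteoblasts and 10.20, 9.34 and 8.82 in endothelial cells of tumor-bearing mice, a difference of 0.46, and Cxcl12, Adipoq and Ebf3 differed by 0.46, 0.01 and 0.03. Their change was not past the direct test in any member named here (limma adjusted p = 0.276, 0.624, 0.364 and 0.222). Angpt1 (3.85 and 0.98) and Esm1 (2.52 and 0.25) also passed in tumor-free but not in tumor-bearing mice, with adjusted p for the change of 0.38 and 0.244 by limma.

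**Figure D5:**
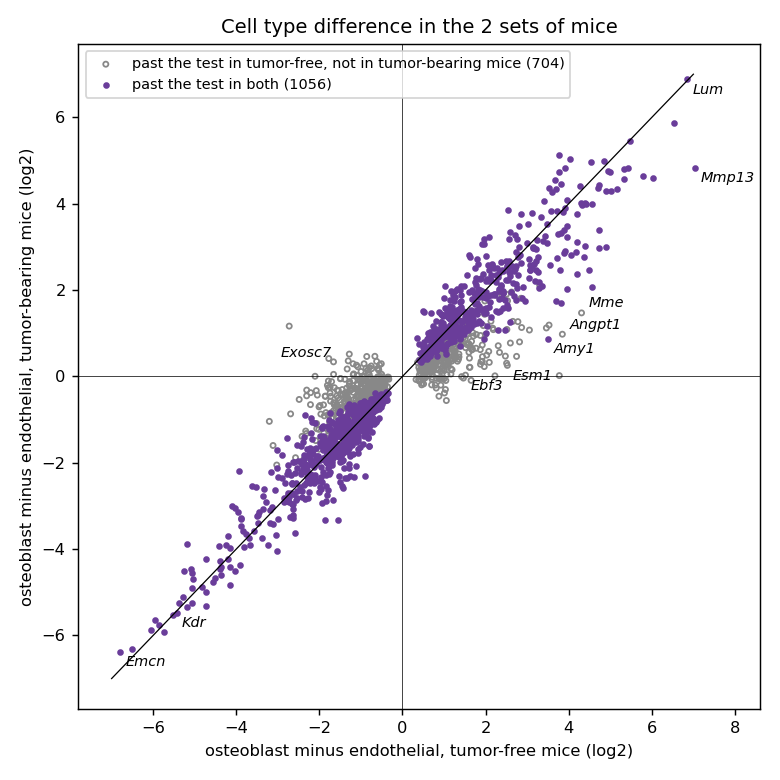
Osteoblast minus endothelial difference in log2 units of the 1760 genes past the test in tumor-free mice, in tumor-free (horizontal axis) and tumor-bearing mice (vertical axis); purple points also passed in tumor-bearing mice (1056) and the line marks equal differences. Emcn, Kdr and Lum lie near the line, and Mmp13, Amy1, Angpt1 and Esm1 lie below it.

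A few genes varied widely among the osteoblast arrays, here the 8 with the largest SD, which by that choice could hardly pass the test. Snora20, a small nucleolar RNA, read 3.30, 3.43 and 9.17, high in replicate 3 alone, and Gpr65, a receptor of immune cells, read 4.61, 3.96 and 9.05, also high in replicate 3. Npn2 read 5.33, 10.44 and 4.57, high in replicate 2.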

How the data were processed

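Sorted cells were profiled for RNA with the Affymetrix Mouse Gene 1.0 ST array. The values the authors deposited are on the log2 scale, 1 per probe set, and their normalization between arrays was kept; they were made with the package affy, per the submitters' processing notes, and its version and summary method are not stated in any source used here. Per the labels' protocols, RNA of 5000 cells was amplified, which can distort proportions of transcripts, and fold changes of dim probe sets are understated on this scale. All 12 columns of the table were mapped to samples, with 0 left over.

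A platform annotation gave 1 symbol to 21640 of 34760 probe sets, several to 1321 and none to 11799. Symbols were updated through a RefSeq table of GRCm38.p6, which matched 21553 of them. A gene with several probe sets was represented by its brightest, chosen again whenever arrays were left out. A gene was tested if it exceeded the array's 40th percentile in at least 3 of 12 arrays. Group means of all 12 arrays were modelled by limma 3.58.1 (R 4.3.3), which shares 1 estimate of spread, and moderated by eBayes with the default prior. P-values are two-sided and adjusted by Benjamini-Hochberg over 14217 genes, with a threshold of 0.05. On simulated data for this contrast over 14217 genes, 200 genes were given a difference, 50 of each size. Of differences of 0.5, 1, 2 and 3 log2 units, 22%, 58%, 78% and 96% passed, each with its true sign. A further 6 genes simulated without a difference passed. In the data 1760 genes passed, and the adjusted threshold depends on how many genes differ. The simulated shares therefore need not hold for the data.

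The members, the 22 gene lists and the 19 marker lists were chosen with earlier results of these data known, so their counts are descriptions and no list was tested as a set. Medians of marker lists by array use all members with a single-symbol probe set. Named genes are the 12 largest differences per direction with groups that do not overlap, from each list up to 4 members with the smallest p and up to 2 against its direction, the genes of the gates and of a few cell type markers, up to 6 per direction for the change with tumor, the 8 and 4 genes with the widest spread in osteoblast and endothelial arrays, and other list members by role, whether or not they passed.

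The labels do not say whether the same replicate number in the 2 cell types marks arrays of the same mice. Deviations of same-numbered tumor-free arrays from their group means correlated at 0.02, -0.02 and 0.01 over genes. Such low values show no strong shared deviation but cannot tell whether the arrays share mice. Alternative settings concerned scaling (quantile normalization or median centring), the dim gene filter (none, or the 60th percentile), averaging over probe sets, robust eBayes with a trend, array weights, the replicate number as a block, tumor-free arrays alone, a fold change of at least 2, and leaving out each of the 12 arrays. Promoter windows came from RefSeq's table, 1 or more a gene.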

Additional observations from a re-analysis of the deposited data

Results flagged for a closer look

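In 4 genes the osteoblast minus endothelial difference itself differed between tumor-free and tumor-bearing mice by limma's direct test over 14217 genes. Chil1 changed most, by 3.34 on the log2 scale (adjusted p = 0.0179): its osteoblast arrays read 6.19, 6.08 and 6.84 in tumor-free and 9.83, 10.11 and 9.13 in tumor-bearing mice, against 6.15, 6.33 and 6.35 and 6.15, 6.23 and 6.39 in endothelial cells. Mmp13 changed by -2.22 (adjusted p = 0.0179), with endothelial values of 5.40, 4.93 and 5.0 in tumor-free and 7.53, 6.96 and 7.40 in tumor-bearing mice. Amy1 changed by -2.64 (adjusted p = 0.0179), and its endothelial arrays read 5.04, 5.53 and 5.85 and then 8.03, 8.10 and 8.0, with osteoblasts at 9.24, 9.01 and 8.70 and 9.20, 8.76 and 8.81. Exosc7 changed by 1.48 (adjusted p = 0.0472), from 6.50, 6.86 and 6.66 to 7.46, 7.06 and 7.07 in osteoblasts and from 7.75, 7.91 and 7.93 to 6.95, 6.91 and 6.84 in endothelial cells. Over 20 alternatives the change passed in 13 for Chil1, 12 for Amy1, 11 for Mmp13 and 5 for Exosc7, with adjusted p up to 0.337, 0.42, 0.337 and 0.349.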

How the results depend on the processing

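Leaving out each of the 12 arrays gave 534 to 820 genes higher in osteoblasts (765 with all arrays), 705 to 1024 lower (995), 842 to 1030 shared with tumor-bearing mice (1056), and 0 to 7 whose difference changed with tumor (4). Asking for a fold change of at least 2 left 494 higher, 636 lower, 722 shared and 4 changed genes. With the replicate number as a block in the fit, 598 genes were higher, 809 lower, 848 shared and 0 changed. The cause of these lower counts was not tested. Under the other settings the counts ranged from 642 to 882 higher, 859 to 1065 lower, 985 to 1188 shared and 3 to 4 changed. Quantile normalization and median centring moved the median of all genes by less than 0.04 on the log2 scale.

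Of the genes named that passed, 0 changed sign in any setting, and each of the 36 that missed the threshold in at least 1 of the 21 settings is here: Ace, Adamts4, Adamts9, Blnk, C1qc, Cdh4, Col2a1, Col4a2, Copz2, Csf1, Cspg4, Ermap, Fam20c, Gja1, Gucy1a1, H2-Ab1, H2-Eb1, Hif1a, Igf1, Igf1r, Igll1, Itgav, Kera, Loxl4, Lpl, Osmr, Psmb9, Ptgs2, Sec23a, Slc13a5, Slc4a1, Tgfb1, Timp3, Timp4, Tpi1 and Twist1. Their adjusted p by limma reached at most 0.162. Conversely, 7 named genes that did not pass did so in at least 1 setting: Nrp2 (in 4), Notch3, Rgs5 and Sparc (in 2 each), and Acta2, Klf2 and Tnfsf11 (in 1 each). The sign changed for 4 named genes that did not pass, with 1 array left out: Itgb1 ranged from -0.083 to 0.097, Chil1 from -0.14 to 0.24, Ptprc from -0.10 to 0.51 and Sost from -0.04 to 0.12. Signal near background limits the dim genes, and 3 arrays a group limit all of them.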

Other observations

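Most genes that separated the cell types lie outside the lists described above. Of the 1760 genes that passed, 1421 were in no list, 573 higher and 848 lower in osteoblasts, and 797 of them passed in the same direction in tumor-bearing mice. The genes named here were chosen after their values were seen. Among the largest toward osteoblasts were Prkg2, a cGMP-dependent kinase of the growth plate (4.91), the adhesion receptors Ptprd (4.91) and Fat3 (4.32), Sdc2, a heparan sulfate proteoglycan (4.74), Ccdc80 (4.72), the axon guidance ligand Slit2 (4.57), Vldlr (4.29), Mme (neprilysin, 4.31), Hpgd, which degrades prostaglandins (4.20), and Ptgs2, which makes them (3.70). The difference of Prkg2 was 2.64 without osteoblast replicate 1 and 2.51 without osteoblast replicate 3. With an array left out, the brightest probe set of a gene was chosen again and can be another one. Neither value thus shows that 1 osteoblast array carried the difference of Prkg2. Irs1, an adaptor of the insulin and IGF receptors, read 9.07, 9.07 and 9.08 in osteoblasts and 4.95, 5.20 and 4.92 in endothelial cells (4.05), while the insulin receptor gene Insr read 8.18, 9.60 and 9.34 and 11.78, 11.66 and 11.75 (-2.69). Adaptor and receptor thus lay on opposite sides, with no overlap in either gene, and in tumor-bearing mice their differences were 2.82 and -2.28.

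Toward endothelial cells the largest outside the lists included Adh6b (-5.18), Ly96, the partner of the endotoxin receptor (-5.07), the immune GTPase genes Gimap4 and Gimap6 (-5.07 and -4.25), the signalling genes Rasgrp3 (-4.73) and Prex2 (-4.39), and Lipg, endothelial lipase (-4.15). Gpr182, a receptor of sinusoidal endothelium, read 9.39, 9.33 and 9.35 against 5.22, 5.29 and 6.46 in osteoblasts (-3.70), and Thrsp, a gene of lipid synthesis, 9.97, 9.14 and 9.23 against 6.03, 5.74 and 5.58 (-3.66). The guidance ligands also parted: Slit2 was on the osteoblast side, and Sema3a, known as a product of bone cells, was lower in osteoblasts, at 7.19, 6.52 and 6.97 against 10.31, 10.22 and 10.23 (-3.36, and -2.77 in tumor-bearing mice).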
